A study of Mus musculus with 6 samples.

Results

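Interneurons, the inhibitory GABA neurons of the hippocampus, are built by a small set of transcription factors, and this report follows 9 genes of that programme: the regulators Lhx6, Maf, Dlx1, Dlx2, Dlx5, Dlx6, Sox6 and Satb1, and the receptor Erbb4. They were chosen by name, with earlier results of these data known. A gene was measured where a probe set of the array is annotated with that gene alone, and where there were several such probe sets the one with the highest mean over all arrays was used. This held for 8 of the 9 genes, among 22180 genes measured in the same way. Dlx1 has no probe set of its own, because the one that covers it is shared with an antisense transcript, and it was not analysed.

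The samples were mouse hippocampal primary cells prepared from embryos of prenatal day 18 and infected with AAV1/2, an adeno-associated virus used to carry genes into neurons, once they had grown for 7 days. In 3 samples the treatment was Diras2 knockdown, against a small Ras-family GTPase of the brain, and in 3 it was a scrambled control. Both groups therefore carried virus, and RNA was isolated 7 days after infection. The labels call the samples biological replicates and do not say whether separate litters or cultures gave them, and the p-values below rest on a spread between samples that may be technical in part. The strain, the sex of the embryos and the knockdown sequence are not given in the sources used here, and as the labels name no other knockdown treatment, what this treatment does beside lowering Diras2 cannot be told apart from the loss of Diras2.

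In the mouse forebrain interneurons are born in the ganglionic eminences. The distal-less homeobox genes Dlx1 and Dlx2 act first, in dividing progenitors and young postmitotic cells, and are followed by Dlx5 and Dlx6. Cells from the medial eminence then switch on Lhx6, a LIM-homeodomain factor that persists in somatostatin and parvalbumin interneurons. Sox6, Satb1 and Maf act after Lhx6 in the migration, maturation and survival of these cells. Erbb4, the receptor tyrosine kinase for neuregulins, is strongly expressed in many interneurons and shapes their excitatory input. Several of the genes are not exclusive to interneurons: Satb1 is also found in excitatory neurons and Sox6 in progenitors and oligodendrocyte precursors.

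The values are log2 RMA expression levels, in which a difference of 1 is a doubling or halving. Diras2 was at 7.17, 6.23 and 6.08 in the knockdown arrays, against 10.17, 10.17 and 9.76 in the control arrays, so every array matched its label (exact two-sided permutation p = 0.1, the smallest that 3 against 3 arrays allow). Array medians lay between 4.03 and 4.11. The pan-neuronal markers averaged 11.15 to 11.42 in knockdown arrays and 11.24 to 11.57 in control arrays, while endothelial markers averaged 3.62 to 3.64 in knockdown arrays and 3.63 to 3.72 in control arrays, below the array medians. A culture is a mixture, and a lower level in it cannot separate fewer cells of a type from less RNA per cell.

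Lhx6 fell and Satb1 rose with Diras2 knockdown. The other 6 genes did not pass the test: Maf, Dlx2, Erbb4, Dlx6 and Dlx5 had negative differences and Sox6 a positive one. The test was limma over all 22180 genes, with Benjamini-Hochberg adjustment and a call at an adjusted p under 0.05. By that rule 1 of 8 genes was lower, where 3.64% of all genes were, and 1 of 8 was higher, where 4.17% of all genes were. In either direction that is 2 of 8, beside 7.80% of all genes. As the genes were chosen with earlier results of these data known, counts and medians beside all genes are no independent support. The median difference of the 8 was -0.45 on the log2 scale, with 6 below 0, against a median of 0.0 over all genes, of which 49.6% lay below 0.

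**Figure D1:**
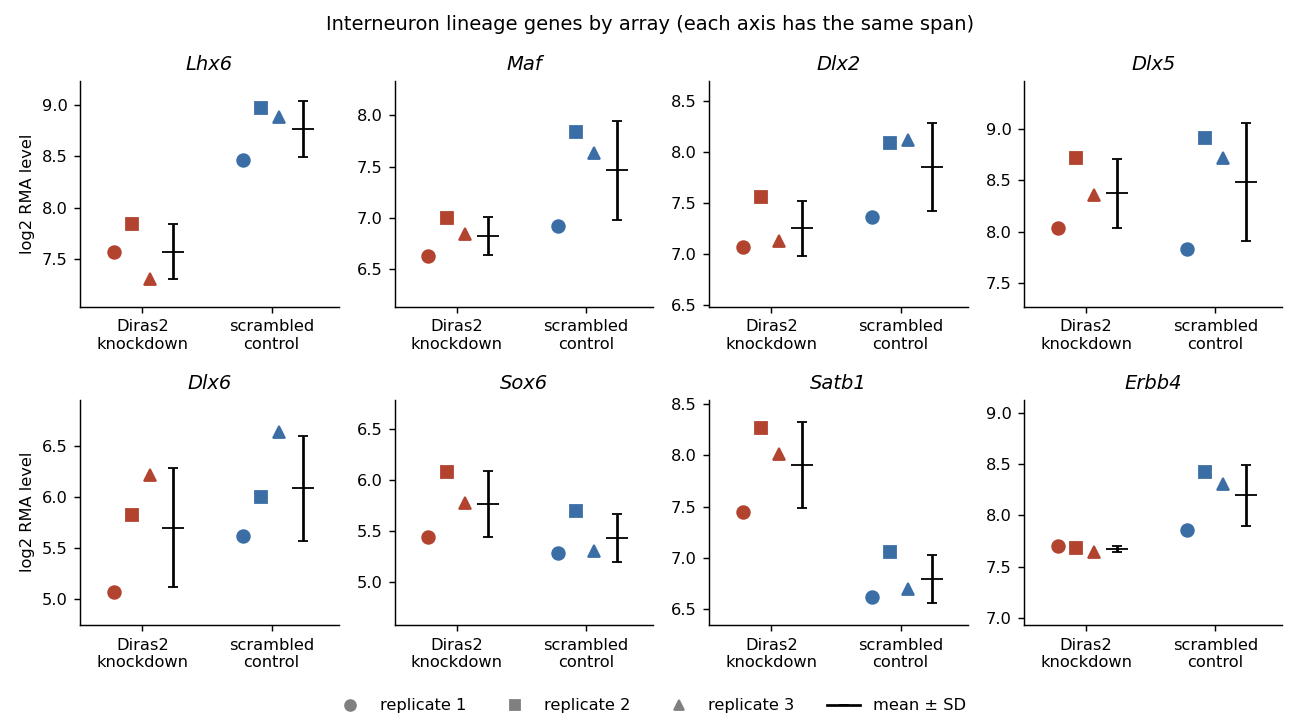
Log2 RMA level (y axis) of the 8 measured genes in the 3 Diras2 knockdown arrays (left, red) and the 3 scrambled control arrays (right, blue); the symbol gives the replicate number and the black bar the mean ± SD of the group. The groups are apart for Lhx6, Satb1 and Erbb4, and the circle of control replicate 1 is the lowest control in all 8 panels.

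Lhx6 read 7.57, 7.84 and 7.30 in the knockdown arrays and 8.46, 8.97 and 8.88 in the control arrays. The highest knockdown array lay 0.62 below the lowest control array. The means were 7.57 ± 0.27 in the knockdown and 8.77 ± 0.27 in the control (SD, n = 3 each), a 2.30-fold fall with a log2 difference of -1.20 (SE 0.18, 95% interval -1.61 to -0.79) and an adjusted p of 0.0063 by limma. The call held without each array in turn, with log2 differences between -1.36 and -1.06 and adjusted p-values of at most 0.0375.

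The RefSeq promoter table (assembly GRCm38.p6) held 3 start sites of Lhx6, and the window upstream of the most downstream one is shown because it alone of the 3 held a core motif of these factor families. The motifs searched on both strands in the 250 bases before each start were TAATTA and TAATTG, which homeodomain factors such as Lhx6 and the Dlx proteins prefer, TGCTGA, one side of a Maf site, and AACAAT, the core of a Sox site. None of these 4 contains another. The window lies at chr2:36104061-36104310 on the minus strand, and capitals mark TAATTG and the Sox core, which lies on the other strand and so reads ATTGTT here.
Lhx6: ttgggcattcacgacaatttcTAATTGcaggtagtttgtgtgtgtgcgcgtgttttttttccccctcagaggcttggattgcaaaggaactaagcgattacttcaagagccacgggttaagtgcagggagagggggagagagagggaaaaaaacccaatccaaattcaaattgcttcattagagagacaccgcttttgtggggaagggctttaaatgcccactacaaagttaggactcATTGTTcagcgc
Of all 32851 windows in the table, 7.17% held TAATTG, 9.42% AACAAT, 4.84% TAATTA and 16.1% TGCTGA. The table had windows for 6 of the 9 genes, and none for Maf, Dlx5 or Dlx6. Sox6, which did not pass the test, also had windows with TGCTGA and AACAAT, while the windows of Dlx1 and Dlx2 held none of the 4 motifs. A match describes these letters only and is not a measured binding site.

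Satb1, a chromatin organiser that in mouse cortex acts downstream of Lhx6 in somatostatin interneurons, moved the other way from Lhx6. Its levels were 7.45, 8.27 and 8.01 in the knockdown arrays and 6.62, 7.06 and 6.70 in the control arrays, so that the lowest knockdown array stood 0.39 above the highest control array. Satb1 averaged 7.91 ± 0.42 in the knockdown and 6.79 ± 0.23 in the control (SD, n = 3 each). It rose 2.17-fold, a log2 difference of 1.12 (SE 0.21, 95% interval 0.63 to 1.61), and passed by limma (adjusted p 0.0181). The rise was larger than the spread of either group, but its call was lost without knockdown replicate 2 (log2 difference 0.94, adjusted p 0.0674), without knockdown replicate 3 (1.07, 0.0754) and with the RNA integrity number as a covariate (0.97, 0.0868). Integrity numbers were 9, 9.3 and 9.2 in the knockdown and 9.2, 9 and 8.8 in the control. None of the 5 Satb1 promoter windows held any of the 4 motifs.

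Maf, a basic leucine zipper factor that in mouse cortex supports the survival of medial eminence interneurons, was at 6.63, 7.00 and 6.84 in the knockdown arrays and at 6.92, 7.84 and 7.63 in the control arrays. The groups overlapped through control replicate 1, which lay below knockdown replicate 2. The log2 difference was -0.64 (95% interval -1.16 to -0.12), and the adjusted p by limma was 0.148, or 0.0276 when the replicate number was a block. Without control replicate 1 the log2 difference was -0.91 with an adjusted p of 0.0121. Without control replicate 2 it was -0.45 (adjusted p 0.382), and with the RNA integrity number as a covariate -0.53 (adjusted p 0.396). A second, dimmer Maf probe set gave 3.67, 4.00 and 3.83 in the knockdown arrays and 3.48, 4.87 and 4.77 in the control arrays, with a log2 difference of -0.54. Its control arrays 2 and 3 stood above all knockdown arrays and control array 1 below them.

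Sox6, an SRY-box factor that in mouse acts after Lhx6 in the positioning of interneurons, gave 5.44, 6.08 and 5.78 in the knockdown arrays and 5.29, 5.70 and 5.31 in the control arrays. The groups overlapped, and the log2 difference of 0.33 (95% interval -0.09 to 0.75) had an adjusted p of 0.363 by limma. All 3 same-numbered pairs of arrays differed upwards, by 0.15, 0.38 and 0.47. Sox6 is also a gene of oligodendrocyte precursors, and of 8 measured oligodendrocyte lineage markers 1 rose and 0 fell, Pdgfra, the platelet-derived growth factor receptor, with a log2 difference of 2.80 (adjusted p 0.0104 by limma, and 0.0575 without control replicate 2). Of all genes 4.17% rose and 3.64% fell. The oligodendrocyte lineage list averaged 5.47 to 6.18 in knockdown arrays and 5.30 to 5.61 in control arrays. Its other 7 genes, averaged apart after the values were seen, lay at 5.40 to 5.91 in knockdown arrays and 5.43 to 5.76 in control arrays, with a median log2 difference of 0.08. The part of such cells in the Sox6 values was not tested.

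The Dlx genes sit in neighbouring pairs in the genome, Dlx1 beside Dlx2 on chromosome 2 and Dlx5 beside Dlx6 on chromosome 6. Dlx2 had levels of 7.07, 7.56 and 7.13 in the knockdown arrays and 7.36, 8.09 and 8.11 in the control arrays. Only control replicate 1 fell within the knockdown range. Its log2 difference of -0.60 (95% interval -1.11 to -0.09) did not pass by limma (adjusted p 0.166). It passed with the replicate block (adjusted p 0.0442) and without control replicate 1 (-0.85, adjusted p 0.0247). It did not pass without control replicate 2 (-0.48, adjusted p 0.406) or with the RNA integrity number as a covariate (-0.49, adjusted p 0.426).

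Dlx5 showed no such separation. It read 8.04, 8.72 and 8.36 in the knockdown arrays and 7.83, 8.91 and 8.72 in the control arrays, and the lowest array of all was a control. The log2 difference was -0.11 with a 95% interval of -0.77 to 0.54, and the adjusted p by limma was 0.879, or 0.660 in the blocked fit. The interval leaves room for a change of the size seen in Dlx2.

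Dlx6 read 5.07, 5.82 and 6.21 in the knockdown arrays and 5.62, 6.00 and 6.63 in the control arrays. Its spread within each group, an SD of 0.58 in the knockdown and of 0.51 in the control, exceeded the log2 difference of -0.38 (95% interval -1.13 to 0.36, adjusted p 0.588 by limma). The same-numbered pairs differed by -0.55, -0.18 and -0.42, and with the replicate block the adjusted p was 0.0724. RefSeq places the antisense transcript Dlx6os1 over Dlx6. Dlx6os1, named after its values were seen, has a probe set of its own, and its levels were 6.14, 6.84 and 6.97 in the knockdown arrays and 6.25, 6.49 and 6.66 in the control arrays (adjusted p 0.720 by limma).

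The knockdown arrays of Erbb4 lay close together. They read 7.70, 7.68 and 7.64, against 7.86, 8.42 and 8.31 in the control arrays. The means were 7.67 ± 0.03 in the knockdown and 8.20 ± 0.30 in the control (SD, n = 3 each), and the groups did not overlap, with a gap of 0.16. The log2 difference of -0.52 (95% interval -0.87 to -0.18) did not pass by limma, with an adjusted p of 0.0785, nor in the blocked fit, with 0.0555. It passed without control replicate 1 (-0.69, adjusted p 0.0117), with array weights (-0.63, 0.0203) and when only genes with a mean level of at least 6 were tested (0.0439). It did not pass without control replicate 2 (-0.41, adjusted p 0.242) or with the RNA integrity number as a covariate (-0.40, adjusted p 0.272).

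The single Erbb4 promoter window, at chr1:69108060-69108309 on the minus strand, held the Sox core once, on the other strand and marked in capitals, and none of the other 3 motifs. It is shown as the counterpart of the Lhx6 window among the genes whose groups did not overlap.
Erbb4: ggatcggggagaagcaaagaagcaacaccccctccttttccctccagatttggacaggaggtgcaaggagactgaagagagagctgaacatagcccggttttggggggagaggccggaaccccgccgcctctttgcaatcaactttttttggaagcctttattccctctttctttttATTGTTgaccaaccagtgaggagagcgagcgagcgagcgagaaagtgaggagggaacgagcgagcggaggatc

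**Figure D2:**
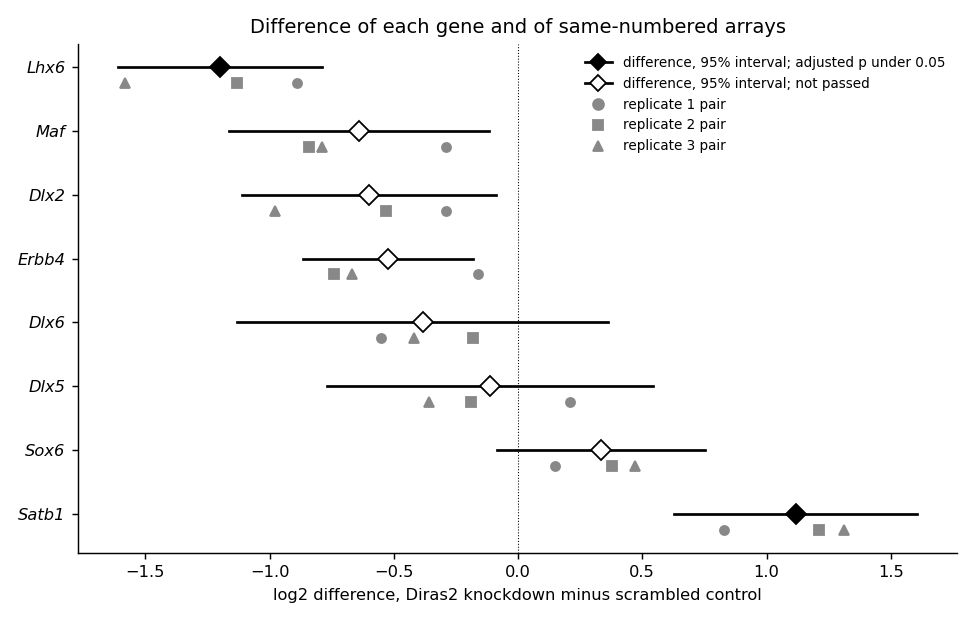
Log2 difference, Diras2 knockdown minus scrambled control (x axis), of the 8 genes with its 95% interval; filled diamonds passed at an adjusted p under 0.05, and grey symbols give the difference of same-numbered arrays. Lhx6 lies at -1.20 and Satb1 at 1.12, and only Dlx5 has pairs on both sides of 0.

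Seen across the 8 genes, the groups did not overlap for 2 that were lower in the knockdown, Lhx6 and Erbb4, where 12.1% of all genes were lower without overlap. They did not overlap for 1 that was higher, Satb1, where 13.4% of all genes were. Same-numbered arrays deviated together over the whole table, with correlations of 0.121 to 0.427, so the replicate number was also fitted as a block. With it 3 of the 8 fell, Lhx6, Maf and Dlx2, where 5.64% of all genes did, and 1 rose, Satb1, where 6.05% did. All 3 pairs were lower for 5 genes, Lhx6, Maf, Dlx2, Dlx6 and Erbb4 (22.0% of all genes), and higher for 2, Sox6 and Satb1 (23.0%).

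Control replicate 1 was the lowest control array for all 8 genes, while it was the lowest for 34.4% of all genes. Its deviation from the control mean ran from -0.14 for Sox6 to -0.66 for Dlx5. The 8 genes were read on the same arrays and are not separate observations. The low position was not particular to them. The GABA list averaged 8.52 in control replicate 1, against 9.04 and 9.04, and the subtype list 7.67, against 8.06 and 8.0. The ErbB, oligodendrocyte lineage and Cajal-Retzius lists were also lowest in that control array. Further lineage regulators, migration genes and excitatory, pan-neuronal, astrocyte and microglia markers were highest in it. Knockdown replicate 1 was the lowest knockdown array for 6 of the 8, the exceptions being Lhx6 and Erbb4, against 34.5% of all genes. Without control replicate 1, 4 of the 8 genes fell, Lhx6, Maf, Dlx2 and Erbb4, where 3.10% of all genes fell in the same fit. Leaving out the lowest control array of a gene lowers its difference by construction. The count of 4 is therefore no further support for a fall, and the share of all genes is not a like comparison.

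**Figure D3:**
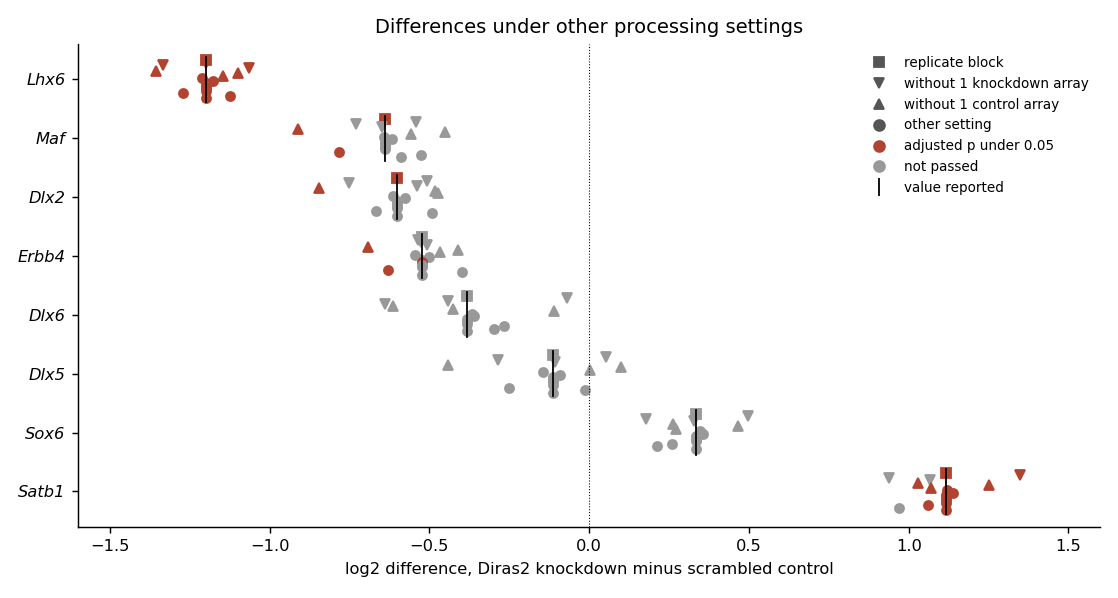
Log2 difference, Diras2 knockdown minus scrambled control (x axis), of the 8 genes under each alternative setting; red symbols had an adjusted p under 0.05 and the vertical line is the value reported. Lhx6 is red throughout, and Dlx5 is the gene whose symbols lie on both sides of 0.

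Among further regulators of the interneuron lineage 1 gene passed the test, where 4.17% of all genes rose and 3.64% fell. Of 25 listed, 19 were measured, and of these 0 rose, 1 fell and 18 did not pass, with 13 below 0 and a median log2 difference of -0.07. Etv1, an ETS factor of interneurons and deep-layer neurons, was the one that fell. It read 8.77, 8.38 and 8.50 in the knockdown arrays and 9.60, 9.18 and 9.24 in the control arrays (log2 difference -0.79, adjusted p 0.0179 by limma). Its call was lost without knockdown replicate 2 or 3 (adjusted p up to 0.0797). Sp9, a zinc-finger factor that works with the Dlx genes, differed by -0.45 on the log2 scale (adjusted p 0.182). Nr2f2, a nuclear receptor of caudal eminence interneurons, differed by -0.23 (adjusted p 0.229).

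No close relative of the 9 genes passed the test. Of 9 measured relatives 0 rose and 0 fell by limma, and 1 had an unadjusted p under 0.05, as 20.9% of all genes did. This was Mafa, another large Maf factor, whose log2 difference was -0.42 (adjusted p 0.0948). Sox5, the SoxD partner of Sox6, differed by -0.21 (adjusted p 0.499).

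Around Erbb4, 16 of 17 receptors, ligands and processing enzymes of the ErbB family were measured, and 1 rose, 0 fell and 15 did not pass. Of all genes 4.17% rose and 3.64% fell. The family gene that rose was Egf, epidermal growth factor, a ligand of another ErbB receptor, with levels of 4.30 ± 0.11 in the knockdown and 3.88 ± 0.04 in the control (SD, n = 3 each) and a log2 difference of 0.42 (adjusted p 0.0400 by limma). These levels are close to the array medians, and the call was lost without any 1 of the 6 arrays (0.0710 to 0.121). Bace1, the protease that releases neuregulin from its membrane-bound precursor, differed by -0.61 on the log2 scale and did not pass (adjusted p 0.0555), but fell in the blocked fit (0.0201), in which Tgfa, a ligand of the epidermal growth factor receptor, also rose (log2 difference 0.38, adjusted p 0.175 without the block and 0.0488 with it). Of the neuregulins, named after their values were seen, Nrg1 differed by -0.11 (adjusted p 0.837) and Nrg3 by 0.26 (adjusted p 0.431).

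**Figure D4:**
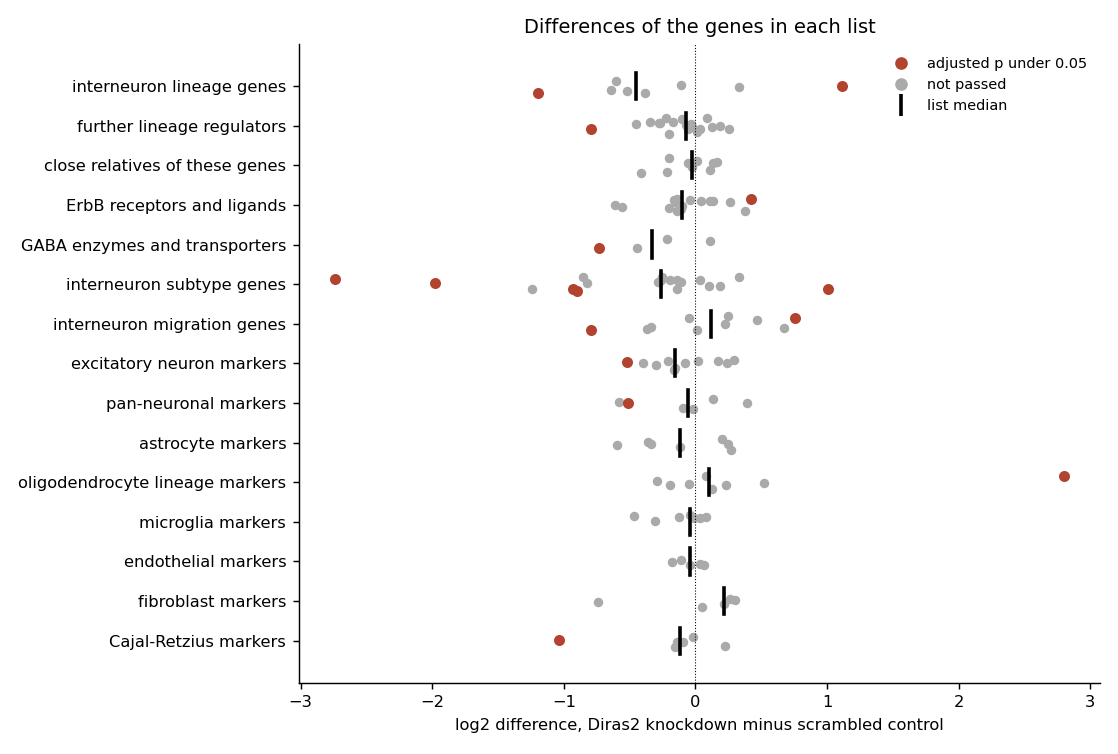
Log2 difference, Diras2 knockdown minus scrambled control (x axis), of every measured gene in each list (rows); red points had an adjusted p under 0.05 and the bar is the list median. The interneuron lineage genes have a median of -0.45, and red points lie on both sides of 0 within that list, the subtype genes and the migration genes.

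The genes that make, carry and degrade GABA were compared next. Of 4 measured GABA enzymes and transporters 0 rose, 1 fell and 3 did not pass, where 4.17% of all genes rose and 3.64% fell. Abat, which degrades GABA, fell to 9.54 ± 0.16 in the knockdown, against 10.27 ± 0.27 in the control (SD, n = 3 each), a log2 difference of -0.73 (adjusted p 0.0277 by limma), and lost its call without knockdown replicate 2 or 3 or control replicate 2 or 3 (up to 0.112). Gad2, which makes GABA, differed by -0.45 on the log2 scale (adjusted p 0.239). Slc32a1, the vesicular carrier of GABA, differed by -0.22 (adjusted p 0.596), and Gad1, the other GABA-making enzyme, by 0.11 (adjusted p 0.828).

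Of 20 interneuron subtype genes 1 rose, 4 fell and 15 did not pass, with 15 below 0 and a median log2 difference of -0.26. Beside this, 4.17% of all genes rose and 3.64% fell. Calb1, the calcium buffer calbindin, fell by 0.93 on the log2 scale and Nos1, neuronal nitric oxide synthase, rose by 1.01, with adjusted p-values by limma of 0.00156 and 0.00237, and both calls held without each array in turn. Crhbp, a binding protein for corticotropin-releasing hormone, and Tac1, which encodes substance P, had the lowest differences of the list, -2.74 and -1.98. Crhbp lost its call without control replicate 2 (0.0533) and Tac1 without any knockdown array or control replicate 2 (up to 0.106). The fourth that fell, Kcnc2, a potassium channel subunit of fast-spiking cells named after its values were seen, had a log2 difference of -0.90 and lost its call without knockdown replicate 2 or 3 or control replicate 2 or 3 (up to 0.121). With the replicate block 7 fell, where 5.64% of all genes did, the further 3 being Sst, Npy and Cort.

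Of 10 genes used by migrating interneurons 1 rose, 1 fell and 8 did not pass, where 4.17% of all genes rose and 3.64% fell. Cxcr4, the chemokine receptor that keeps interneurons in their migratory streams and depends on Lhx6 in mouse cortex, read 7.25, 6.74 and 6.92 in the knockdown arrays and 7.89, 7.74 and 7.65 in the control arrays, with no overlap. Its log2 difference was -0.79 with an adjusted p of 0.0155 by limma, lost without knockdown replicate 2 or 3 or control replicate 2 (up to 0.0675). Dcx, a microtubule protein of young migrating neurons of all kinds, rose by 0.76 on the log2 scale (adjusted p 0.0236), a call lost without any knockdown array or control replicate 2 (up to 0.0770). With the replicate block 3 rose and 1 fell, where 6.05% of all genes rose and 5.64% fell. The further 2 that rose were Nrp1, a semaphorin receptor (adjusted p 0.0230), and Mef2c, a transcription factor of maturing neurons named after its values were seen (0.0362).

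Markers of other neurons and cells were compared over the same arrays, on which 4.17% of all genes rose and 3.64% fell. Of 11 excitatory neuron markers 0 rose and 1 fell, Fezf2, a factor of deep-layer projection neurons, by 0.52 on the log2 scale (adjusted p 0.0435), and the list averaged 8.17 to 8.46 in knockdown arrays and 8.16 to 8.57 in control arrays. Of 6 pan-neuronal markers 1 fell, Snap25 of the synaptic vesicle fusion complex, by 0.51 (adjusted p 0.0471), and 0 rose. Syt1, the calcium sensor of synaptic vesicles, had an adjusted p of 0.107, and fell in the blocked fit (0.0130). Tubb3 went the other way, with a log2 difference of 0.39, and did not pass (adjusted p 0.106 by limma, 0.0517 with the block). Of the 6 markers 4 lay below 0 and 2 above, with a median log2 difference of -0.06. The calls of Fezf2 and Snap25 were lost in 5 of the 6 fits that leave out 1 array (up to 0.168). Of 6 Cajal-Retzius cell markers 1 fell, Ndnf, which neurogliaform interneurons also express, with a log2 difference of -1.04 (adjusted p 0.0127, and 0.0522 without control replicate 2), and 0 rose. That list averaged 5.56 to 5.74 in knockdown arrays and 5.72 to 6.01 in control arrays, and its other 5 genes, averaged apart after the values were seen, 5.26 to 5.53 in knockdown arrays and 5.30 to 5.55 in control arrays.

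Glial and vascular markers gave 0 calls by limma without the replicate block outside the oligodendrocyte lineage. Of 7 astrocyte markers 1 had an unadjusted p under 0.05, of 7 microglia markers 2, of 5 fibroblast markers 1 and of 5 endothelial markers 0, beside the 20.9% of all genes. With the replicate block 1 marker fell in each of 3 of these lists, where 5.64% of all genes fell. These were Gja1, the astrocyte gap junction protein (adjusted p 0.0385), Csf1r, a growth factor receptor of microglia (0.0339), and Lum, a matrix proteoglycan of fibroblasts (0.0442). Astrocyte markers averaged 7.33 to 7.74 in knockdown arrays and 7.60 to 7.75 in control arrays, and microglia markers 4.21 to 4.35 in knockdown arrays and 4.24 to 4.50 in control arrays. Fibroblast markers averaged 5.76 to 6.14 in knockdown arrays and 5.64 to 6.10 in control arrays. Lum itself averaged 3.38 in the knockdown and 4.12 in the control, near or below the array medians. Differences lay above 0 for 3 of 7 astrocyte, 2 of 7 microglia and 4 of 5 fibroblast markers. The median log2 differences of these lists were -0.12, -0.04 and 0.21. The part of any of these cells in the levels of the 8 genes was not tested. Outside the 8 genes, 14 listed genes were called, and with the RNA integrity number as a covariate 12 of them lost the call (adjusted p 0.0514 to 0.150), all but Calb1 and Nos1.

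The genes with the pattern most like that of Lhx6 over the 6 arrays were sought among 9010 genes with a mean level of at least 6, by the root mean square difference between profiles centred on each gene's own mean. The closest 5 were Ppif, the mitochondrial cyclophilin, at 0.127 log2 units, Ndnf, a secreted neurotrophic factor, at 0.137, Cenpx, of a DNA repair and kinetochore complex, at 0.143, Rpp25, a protein of the RNA-processing ribonuclease P family, at 0.144, and Nacc1, a BTB-domain transcription regulator, at 0.147. Their knockdown arrays all lay below their control arrays, with log2 differences between -1.35 and -1.04, which follows from choosing them by the profile of Lhx6 and is no further result.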

How the data were processed

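RNA of 6 mouse hippocampal cultures, 3 with Diras2 knockdown and 3 with a scrambled control, was amplified by a whole-transcript protocol and read on Affymetrix arrays, per the labels' protocols. Per the submitters' processing notes, the authors used RMA and Affymetrix Expression Console 1.2.1.20, and what they deposited is 1 log2 level for each probe set and array. RMA puts all arrays on 1 distribution, so it hides a shift that most genes have in common, and it compresses folds at low levels. Precision is limited by the number of arrays.

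Of 41345 probe sets the platform annotation pairs 23521 with 1 gene symbol and 1814 with several, and 16010 are unnamed here. The brightest was used for 1082 genes with several. Of 22180 genes, 21994 matched the RefSeq table of GRCm38.p6 by Entrez number, 0 with a differing symbol. No source used here names the build behind the array, so coordinates are RefSeq's and only for promoter windows.

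Groups came from the sample titles. In R 4.3.3, limma 3.58.1 (lmFit, then eBayes with no trend) compared knockdown minus control, and p-values were adjusted by Benjamini-Hochberg across the whole gene table. Folds are the log2 differences raised from base 2. Deviations from group means had correlations of 0.427, 0.121 and 0.374 between arrays of the same number, and of -0.378 to 0.057 between arrays of differing number. All 3 exceed the bound of 0.1, so the replicate number was also fitted as a block, on the basis of the data and not of the labels. Calls and counts come from the fit without the block, which treats the arrays as unpaired, unless the block is named. Block values are printed for genes whose call they change. The fit was tested on simulated data with known log2 differences. It called 15.3% of 313 differences of 0.5, 71% of 365 of 1 and 96.6% of 322 of 2. A gene that did not pass is therefore not shown to be unchanged.

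The genes, the lists and the tests were chosen with earlier results of these data known. Named were the 8 measured genes, Diras2, genes among the 4 with the smallest p of each list, and the 5 genes closest to Lhx6 in pattern; other names are marked as chosen after their values were seen. Figures were drawn with matplotlib 3.10.9.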

Additional observations from a re-analysis of the deposited data

How the results depend on the processing

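The fit was repeated without each array in turn, with the replicate block, with the RNA integrity number as a covariate and with array weights, after median centring or quantile normalisation, with a trended or a robust variance prior, over genes with a mean level of at least 5 or 6, on the average over a gene's probe sets, and at adjusted p thresholds of 0.1 and 0.01. Lhx6 fell in all 16 fits that could be made of it, with log2 differences from -1.36 to -1.06 and adjusted p-values up to 0.0378. Satb1 rose in 13 of 16, from 0.94 to 1.35 over all. The number of the 8 genes called lower was 3 with the replicate block, 3 with array weights and 2 at a threshold of 0.1. Of all 22180 genes, 1252, 1302 and 1238 were lower in these settings. Without 1 array the number of the 8 ran from 1 to 4, beside 306 to 687 of all genes. Among genes with a mean level of at least 6, a smaller set without Dlx6 and Sox6, it was 2, beside 933 genes lower. The number called higher was 0 with RNA integrity as a covariate and 0 at a threshold of 0.01, and ran from 0 to 1 without 1 array. Of all genes 402, 354 and 383 to 800 were higher in these settings. Dlx5 ran from -0.442 to 0.098 without 1 array: it turned positive without knockdown replicate 1 (0.053), control replicate 2 (0.098) and control replicate 3 (0.0033), and passed in 0 fits. Over all genes 1731 were called, and 2703 with array weights, 758 with RNA integrity as a covariate, 644 at a threshold of 0.01 and 689 to 1487 without 1 array; Diras2 differed by -3.88 to -3.33 without 1 array. The replicate block changed no other call among the 8 genes than those of Maf and Dlx2. The cause of these changes was not tested. Scaling moved the median of all genes by at most 0.023. Dlx6 and Sox6, with mean levels under 6, drop out of the stricter filter, and at their low signal a fold may be understated.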

Other observations

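Sst and Npy, peptides of interneurons from the Lhx6 lineage, and Cort, the somatostatin-like peptide cortistatin, were the 3 interneuron subtype genes that passed in the blocked fit alone, and were chosen after that was seen. Sst read 10.77, 12.10 and 11.72 in the knockdown arrays and 11.62, 12.67 and 12.77 in the control arrays. Npy, which ranged widely within both groups, read 7.39, 8.97 and 9.76 in the knockdown arrays and 8.11, 10.34 and 11.40 in the control arrays. Cort read 4.90, 7.38 and 7.49 in the knockdown arrays and 5.78, 7.99 and 8.56 in the control arrays. By limma without the block the adjusted p-values were 0.282 for Sst, 0.477 for Npy and 0.655 for Cort, and with the block 0.00806, 0.00767 and 0.00688. As for the lineage genes, the lowest control array was replicate 1. Pvalb, the marker of the other large class from this lineage and also named after its values were seen, was at 4.24 ± 0.17 in the knockdown and 4.05 ± 0.09 in the control (SD, n = 3 each), close to the array medians.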
